A study of Rattus norvegicus with 16 samples.

Results

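Vitamin A storage and signalling was followed through 6 genes in adrenal medulla of rats: Lrat, Rbp4, Aldh1a1, Aldh1a2, Crabp2 and Rarb. They were taken by name from the platform annotation, in which each is the only symbol of exactly 1 probe set, so that 6 of 31042 probe sets (6 of 14217 genes) are described. The 6 were chosen with their differences between lesions and wild-type medulla already known, so those differences are given as a description, without a test. Lrat was lower in both lesions than in wild-type medulla of like age, Rbp4 was higher in both, Rarb was higher in hyperplasia, Aldh1a1 was higher in pheochromocytoma, and Aldh1a2 and Crabp2 overlapped with wild type in both.

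The series holds 16 Affymetrix arrays of total RNA from rats of a mixed Sprague–Dawley white eye/Wistar–Kyoto background. Adrenal medullary hyperplasia came from p27Kip1 mutant rats of 2 months (8 arrays, 4 labelled female and 4 male), and its comparison was medulla of wild-type rats of 2 months, in pool 1 of 2 animals labelled male and pool 2 of 3 animals labelled female. Pheochromocytoma, a tumour of the catecholamine-producing chromaffin cells, came from p27Kip1 mutant rats of 8 months (3 arrays, female) and 9 months (1 array, male), and its comparison was medulla of older wild-type rats, in pool 1 of 2 females of 10 months and pool 2 of 2 males of 12 and 17 months. The mutant alleles a rat carried were not given, the mutation is not limited to the adrenal, and a pool shows less than the spread between single animals. Kind of lesion and age go together, so pheochromocytoma against hyperplasia is also older against younger.

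Retinol, the transport form of vitamin A, is carried in blood by a binding protein and is stored inside cells as retinyl ester. Cells oxidise retinol to retinal and then to retinoic acid, which binds nuclear receptors of the RAR and RXR families and so turns genes on or off. In developing sympathetic cells and in neuroblastoma cells, relatives of the chromaffin cell, retinoic acid is known to promote differentiation.

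The windows around the gene starts of Lrat, Rbp4 and Rarb, the 3 genes whose hyperplasia arrays lay clear of both young wild-type pools, are shown as RefSeq gives them on assembly GRCr8, on the gene's strand, from 250 bases before the start to 50 bases after it. The Lrat window is chr2:170571163-170571462 (minus strand), the Rbp4 window is chr1:245313502-245313801 (minus strand) and the Rarb window is chr15:11336142-11336441 (plus strand). Capitals mark TATAAG in Lrat, TATAAA in Rbp4 and the repeated half-site in Rarb.
Lrat: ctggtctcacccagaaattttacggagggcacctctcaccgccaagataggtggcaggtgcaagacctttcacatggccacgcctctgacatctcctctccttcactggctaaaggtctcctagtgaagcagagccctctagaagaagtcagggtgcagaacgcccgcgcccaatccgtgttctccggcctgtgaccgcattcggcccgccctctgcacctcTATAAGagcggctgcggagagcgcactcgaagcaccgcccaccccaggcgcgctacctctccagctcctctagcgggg
Rbp4: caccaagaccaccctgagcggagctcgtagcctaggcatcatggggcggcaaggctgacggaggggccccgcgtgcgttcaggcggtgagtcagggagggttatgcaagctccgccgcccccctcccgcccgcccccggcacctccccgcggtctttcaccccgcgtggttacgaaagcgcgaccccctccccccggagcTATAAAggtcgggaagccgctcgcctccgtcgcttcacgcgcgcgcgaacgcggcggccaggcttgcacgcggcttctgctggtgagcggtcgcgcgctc
Rarb: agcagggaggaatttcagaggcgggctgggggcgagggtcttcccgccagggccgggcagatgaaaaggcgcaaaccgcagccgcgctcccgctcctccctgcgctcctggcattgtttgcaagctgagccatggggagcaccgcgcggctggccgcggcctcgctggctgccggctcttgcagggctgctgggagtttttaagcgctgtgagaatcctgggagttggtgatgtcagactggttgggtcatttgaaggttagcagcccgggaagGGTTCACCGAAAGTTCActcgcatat

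All 6 genes had such a window, and each was searched on both strands for direct repeats of 4 half-sites in any pairing (AGGTCA, its variant GGGTCA, the variant AGTTCA, and the variant GGTTCA) spaced by 1, 2 or 5 bases, an arrangement read by retinoic acid receptors. Rarb held 1 match, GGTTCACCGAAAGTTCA with a spacer of 5 bases, from 25 to 41 bases after the start. A repeat with that spacer stood in 0.382% of 33469 rat promoter windows of this length, one with a spacer of 1 base in 0.233% and one with a spacer of 2 bases in 0.17%, and the windows of the other 5 genes held none of the 3. TATAAA or TATAAG on the gene's strand, in 12.8% of all windows, lay at −28 to −23 from the start of Lrat, −50 to −45 from that of Rbp4 and −73 to −68 from that of Crabp2. The windows held 40 CG pairs in Rbp4, 47 in Aldh1a2, 21 in Rarb, 19 in Lrat, 14 in Crabp2 and 1 in Aldh1a1, beside a median of 7 over all windows. A match of letters is a description of the window and says nothing of binding.

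Values are RMA values on the log2 scale, on which a difference of 1 is a fold of 2, and differences are given ± standard error from the limma fit over the 16 arrays. Arrays ran between medians of 6.51 and 6.61, and their first quartiles lay between 4.71 and 4.93, a level at which a probe set is dim. Chromaffin cell markers were bright on every array (mean of 9 markers, 12.06 to 12.90). The 4 tumours (12.52 to 12.90) lay above the older pools (12.06 and 12.51), with 3 of the 9 markers higher past the threshold, and so did their fibroblast, pericyte and stellate-like markers (mean of 10, 8.32 to 8.97 in pheochromocytoma against 8.22 and 8.26 in older wild type; 1 higher, 1 lower). In this comparison 9.66% of all genes passed as higher and 7.1% as lower. In 20% of all probe sets every tumour lay above both older pools. The part of either marker list in the pheochromocytoma differences was not tested. On 6 arrays the level of Xist, the RNA made from an inactive X chromosome, was opposite to the labelled sex: 4 of the 8 hyperplasia arrays (replicates 1, 2, 5 and 6) and both young wild-type pools, and no pheochromocytoma or older pool. Xist was at least 11.29 where high and at most 4.32 where low, and results that move with it are given by Xist level. Whether labels or samples were exchanged was not tested, the groups were kept as labelled, and since both young pools are among the 6 no hyperplasia difference can be given without them. Without the 4 hyperplasia arrays the differences from young wild type were −2.41 ± 0.70 for Lrat, 4.04 ± 0.44 for Rbp4, 1.12 ± 0.77 for Aldh1a1 and 0.64 ± 0.23 for Rarb. The brighter probe set of Cdkn1b, the mutated gene, was at 11.58 to 11.86 in hyperplasia against 10.89 and 11.04 in young wild type, and at 11.39 to 11.70 in pheochromocytoma against 10.45 and 10.73 in older wild type. The dimmer probe set did not follow it in hyperplasia, at 5.45 to 6.81 against 6.84 and 6.96 in young wild type. In pheochromocytoma (3.83 to 4.40) and older wild type (4.07 and 4.21) it lay below the first quartile on every array. At that level it cannot be set against the brighter one. No direction is given for Cdkn1b, and neither probe set shows which allele is present.

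**Figure D1:**
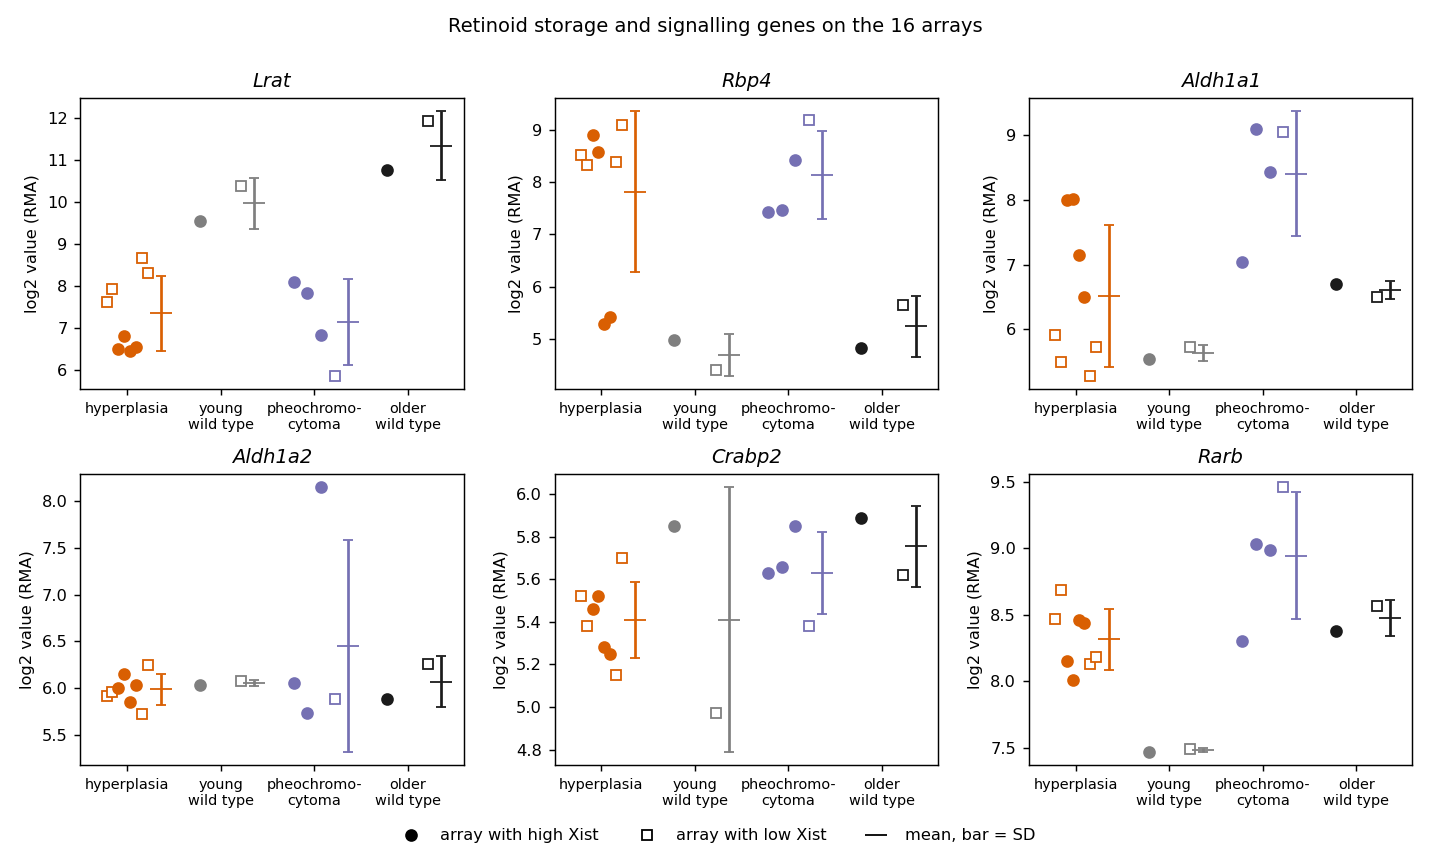
RMA log2 value of each of the 6 genes on each of the 16 arrays, by group (hyperplasia, young wild type, pheochromocytoma, older wild type); filled circles are arrays with high Xist, open squares arrays with low Xist, and the bar is mean ± SD. Lrat lies below the wild-type pools on all 12 lesion arrays, Rbp4 lies above the wild-type pools of its own age on all 12, and 1 pheochromocytoma stands at 8.15 for Aldh1a2.

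Lrat makes retinyl esters from retinol and is the enzyme of vitamin A storage. In hyperplasia it ran from 6.45 to 8.65 with a median of 7.20 (n = 8), against 9.54 and 10.39 in the young wild-type pools. In pheochromocytoma it was 8.09, 7.82, 6.82 and 5.84, against 10.77 and 11.92 in the older wild-type pools. All 12 lesion arrays lay below every wild-type pool. The difference was −2.62 ± 0.62 in hyperplasia (6.17-fold lower) and −4.20 ± 0.68 in pheochromocytoma (18.4-fold lower). Lrat was the most variable gene within hyperplasia after Rbp4 and Aldh1a1 (SD 0.89), and its hyperplasia values fell apart by Xist level, at 6.45 to 6.79 on the 4 arrays with high Xist and at 7.61 to 8.65 on the 4 with low Xist. Of all probe sets, 15.9% were as cleanly parted by Xist in hyperplasia. Against the young pool of like Xist level, Lrat in hyperplasia differed by −2.98 with high Xist and by −2.27 with low Xist (4 arrays against 1 pool each). Against the older pool of like Xist level, Lrat in pheochromocytoma differed by −3.19 with high Xist (3 tumours, 1 pool) and by −6.08 with low Xist (1 tumour, 1 pool).

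Adrenal cortex markers moved with Lrat. The 9 measured cortex markers were Star, Cyp11a1, Cyp11b1, Cyp21a1, Hsd3b1, Nr5a1, Scarb1, Fdx1 and Mrap. Their mean was 10.86 to 11.75 in hyperplasia against 12.19 and 12.26 in young wild type. It was 10.82 to 12.27 in pheochromocytoma against 12.59 and 12.92 in older wild type. Of the 9, 3 were lower past the threshold in hyperplasia and 7 in pheochromocytoma, where 3.47% and 7.1% of all genes were. None was higher in either, and none was dim on every array of a group. With that mean as a covariate Lrat was −1.12 ± 0.51 in hyperplasia and −2.04 ± 0.63 in pheochromocytoma, smaller in size than without it. Over the 4 tumours the cortex mean was 12.27, 11.64, 11.51 and 10.82, and Lrat on the same arrays was 8.09, 7.82, 6.82 and 5.84. The part of cortex tissue in the Lrat difference was not tested, and in bulk tissue fewer cells of a type cannot be told apart from less RNA per cell.

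**Figure D2:**
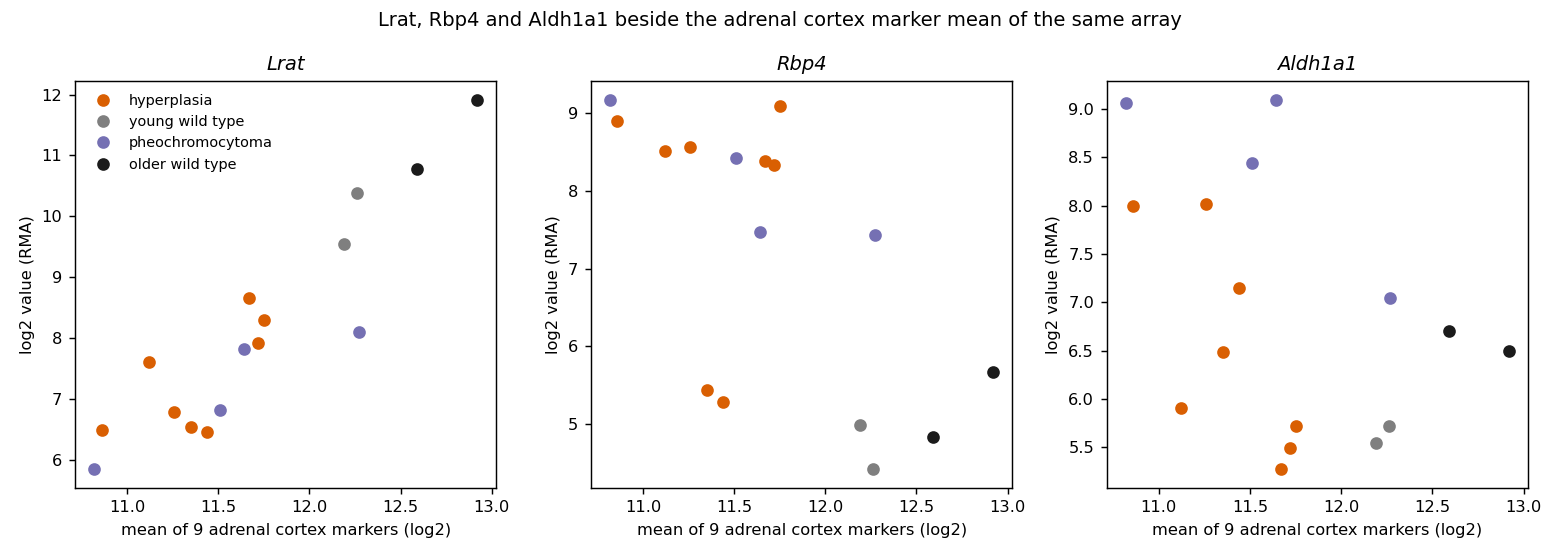
Log2 value of Lrat, Rbp4 and Aldh1a1 on each array (y) against the mean of 9 adrenal cortex markers on the same array (x), coloured by group. The pheochromocytomas at cortex means of 12.27, 11.64, 11.51 and 10.82 have Lrat at 8.09, 7.82, 6.82 and 5.84. The older wild-type pools at 12.59 and 12.92 have Lrat at 10.77 and 11.92, and the young pools at 12.19 and 12.26 have 9.54 and 10.39.

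Of the 3 other storage and cleavage genes measured, 2 fell in the tumours, where 16.8% of all genes passed and 7.1% passed as lower, and none passed in hyperplasia. Dgat1, which completes triglyceride synthesis and can also esterify retinol, was 8.50, 8.51, 8.93 and 8.65 in pheochromocytoma, against 10.37 and 12.05 in older wild type. All 4 tumours lay below both pools, and Dgat1 fell by 2.56 ± 0.38 (limma, adjusted p = 0.000694 over all probe sets). Bco1, which splits carotenoids into retinal, was 4.76 to 4.94 in pheochromocytoma against 5.02 and 6.13 in older wild type, a difference of −0.75 ± 0.24 (adjusted p = 0.0441) that came to −0.19 (adjusted p = 0.725) without older pool 2. Bco1 lay below the first quartile on 3 of the 4 tumour arrays and lost its call in 19 of 28 alternatives. In hyperplasia Dgat1 differed by −0.78 ± 0.34 (adjusted p = 0.185) and Bco1 by −0.18 ± 0.22 (adjusted p = 0.68). With the cortex covariate Dgat1 in pheochromocytoma was −2.09 (adjusted p = 0.119).

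Rbp4 carries retinol in blood and is made chiefly by liver and fat. In hyperplasia 6 arrays were between 8.33 and 9.09 and replicates 5 and 6 were at 5.28 and 5.43, with a median over the 8 of 8.45, against 4.98 and 4.41 in the young pools. In pheochromocytoma it was 7.43, 7.47, 8.43 and 9.18, against 4.83 and 5.66 in the older pools. Every lesion array lay above both wild-type pools of its own age, hyperplasia replicates 5 and 6 by the least, and these 2 arrays were also below older pool 2. The log2 difference was 3.12 ± 0.87 in hyperplasia and 2.88 ± 0.95 in pheochromocytoma. The young and older pools each had 1 array below its first quartile, so the wild-type level is dim and no fold is given. With the cortex covariate the difference was 2.51 ± 1.10 in hyperplasia and 2.01 ± 1.37 in pheochromocytoma. Hepatocyte markers stayed dim (mean of 8 markers, 4.65 to 4.98 in hyperplasia against 4.77 and 4.79 in young wild type, and 4.71 to 4.85 in pheochromocytoma against 4.96 and 5.05 in older wild type), with 3 of the 8 under the first quartile on all 16 arrays. Adipocyte markers were low as well (mean of 7 markers, 4.93 to 5.36 in hyperplasia against 5.23 and 5.56 in young wild type, and 4.84 to 5.07 in pheochromocytoma against 5.06 and 5.77 in older wild type). Only 2 of the 7 were under the first quartile on all 16 arrays, and many of these means lay above the array first quartiles (4.71 to 4.93). The part of liver or fat tissue in the Rbp4 difference was not tested. Within Xist level Rbp4 in hyperplasia was 2.07 higher (high Xist) and 4.17 higher (low Xist), with 4 arrays against 1 pool each. In pheochromocytoma it was 2.95 higher with high Xist (3 tumours, 1 pool) and 3.52 higher with low Xist (1 tumour, 1 pool).

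The partners of Rbp4 did not pass the test in either lesion, though Ttr in pheochromocytoma was near the threshold. Ttr, which binds the Rbp4 protein in blood, was 6.59 to 7.14 in pheochromocytoma against 7.24 and 7.63 in older wild type (−0.52 ± 0.17, adjusted p = 0.0505), below both pools on all 4 arrays. It passed in 6 of 29 alternatives, among them quantile normalization (−0.62, adjusted p = 0.0239), median centring (−0.57, adjusted p = 0.0388) and the arrays without tumour replicate 1 (−0.59, adjusted p = 0.0349). In hyperplasia Ttr differed by −0.32 ± 0.15 (adjusted p = 0.233). Stra6, the membrane receptor for Rbp4, was 0.30 ± 0.11 (adjusted p = 0.0918) in hyperplasia and −0.21 ± 0.12 (adjusted p = 0.238) in pheochromocytoma. None of the 6 measured uptake and transport genes of the pathway passed in either lesion. Of all genes 8.89% passed in hyperplasia and 16.8% in pheochromocytoma. The 5 probe sets of Stra6 disagree, and their mean differed by −0.12 in hyperplasia (adjusted p = 0.423) and −0.15 in pheochromocytoma (adjusted p = 0.266).

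Aldh1a1 and Aldh1a2 oxidise retinal to retinoic acid, Aldh1a2 being the main embryonic enzyme in mouse. Aldh1a1 ran from 5.27 to 8.02 in hyperplasia (median 6.20, n = 8), against 5.54 and 5.72 in young wild type, with 6 arrays above both pools and 2 below. It was 7.04, 9.10, 8.44 and 9.06 in pheochromocytoma, against 6.70 and 6.50 in older wild type, so that all 4 tumours lay above both pools. The difference was 0.88 ± 0.67 in hyperplasia and 1.81 ± 0.73 in pheochromocytoma (3.52-fold higher). Hyperplasia parted by Xist level again, here with the high-Xist arrays on top (6.49 to 8.02, against 5.27 to 5.91 with low Xist), and the difference from the young pool of like Xist level was 1.87 with high Xist and −0.12 with low Xist. With the cortex covariate it was −0.58 ± 0.62 in hyperplasia and −0.29 ± 0.77 in pheochromocytoma, so the direction of Aldh1a1 against wild type turned with that covariate.

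Aldh1a2 was 5.72 to 6.25 in hyperplasia (median 5.98), against 6.03 and 6.08 in young wild type. In pheochromocytoma it was 6.05, 5.73, 8.15 and 5.88, against 5.88 and 6.26 in older wild type. Only replicate 3 of the tumours stood above the pools, and the group difference of 0.38 ± 0.45 was −0.18 without it. In hyperplasia the difference was −0.07 ± 0.41. Aldh1a3, the other measured enzyme of this step, did not pass in hyperplasia (−0.36 ± 0.24, adjusted p = 0.407) or in pheochromocytoma (−0.76 ± 0.27, adjusted p = 0.066). In pheochromocytoma it passed with median centring (adjusted p = 0.0464), with quantile normalization (adjusted p = 0.0448), without tumour replicate 2 (−0.90, adjusted p = 0.0447) and without older pool 1 (−1.30, adjusted p = 0.00604), and was −0.23 without older pool 2.

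The step before, the interconversion of retinol and retinal, was covered by 14 genes. In hyperplasia 0 of them passed, where 8.89% of all genes did. In pheochromocytoma 1 passed, as lower, where 16.8% of all genes passed and 7.1% passed as lower. Nothing is read from that count. Rdh16 was 5.72, 5.79, 5.68 and 6.04 in pheochromocytoma, against 6.13 and 6.86 in older wild type, and fell by 0.69 ± 0.18 (adjusted p = 0.0185). Without older pool 2 it differed by −0.32. Rdh16 lost its call in 4 of 29 alternatives, among them the cortex covariate.

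Crabp2 brings retinoic acid to its nuclear receptors. It was 5.15 to 5.70 in hyperplasia (median 5.42), against 5.85 and 4.97 in young wild type, and the young pools enclosed all 8 arrays. It was 5.63, 5.66, 5.85 and 5.38 in pheochromocytoma, against 5.89 and 5.62 in older wild type. The differences were −0.00 ± 0.19 in hyperplasia and −0.13 ± 0.20 in pheochromocytoma, smaller than the spread between the pools. In hyperplasia the value turned from −0.44 to 0.44 according to which young pool was left out.

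Rarb is a receptor for retinoic acid and is itself known to be switched on by it, through the direct repeat printed above, in mouse and human cells. It was 8.01 to 8.69 in hyperplasia (median 8.31), against 7.47 and 7.49 in young wild type, so all 8 arrays lay above both pools. It was 8.30, 9.03, 8.99 and 9.46 in pheochromocytoma, against 8.38 and 8.57 in older wild type, with 3 tumours above both pools and 1 below. The difference was 0.83 ± 0.22 in hyperplasia (1.78-fold higher) and 0.47 ± 0.24 in pheochromocytoma. With the cortex covariate it was 0.52 ± 0.25 in hyperplasia and 0.00 ± 0.31 in pheochromocytoma. The other 5 receptors did not pass in either lesion, where 8.89% of all genes passed in hyperplasia and 16.8% in pheochromocytoma.

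Taken by overlap, 3 of the 6 genes in hyperplasia (Lrat, Rbp4 and Rarb) and 3 of the 6 in pheochromocytoma (Lrat, Rbp4 and Aldh1a1) had every lesion array on the same side of both pools. Over all probe sets that held for 19.2% in hyperplasia and for 39.8% in pheochromocytoma. The genes were chosen on these contrasts, so nothing is read from the counts.

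The other 41 measured genes of the pathway (of 53 listed) were tested in the same fit, and 3 fell in hyperplasia and 4 in pheochromocytoma, with none higher in either. That is 7.32% in hyperplasia, where 8.89% of all genes passed and 3.47% passed as lower, and 9.76% in pheochromocytoma, where 16.8% of all genes passed and 7.1% passed as lower. Over all probe sets 7.4% passed in hyperplasia and 14.3% in pheochromocytoma. The median difference of the 41 was −0.0668 in hyperplasia (−0.0112 over all genes) and −0.16 in pheochromocytoma (0.005 over all genes).

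The 3 that fell in hyperplasia are among the 8 measured genes known to be induced by retinoids in other cells. The other 5 did not pass there, and the median difference of the 8 was −0.0002, beside −0.0112 over all genes. Of all genes 3.47% passed as lower, and no direction is given for the 8 as a set. Tgm2, a protein cross-linking enzyme, was 9.26 to 10.22 in hyperplasia (median 9.89), against 10.66 and 10.57 in young wild type. All 8 arrays were below both pools, and Tgm2 fell by 0.83 ± 0.20 (adjusted p = 0.0178). Nrip1, a corepressor that binds nuclear receptors, was 8.05 to 8.61 in hyperplasia (median 8.17), against 8.76 and 8.96 in young wild type, and fell by 0.61 ± 0.16 (adjusted p = 0.0295). Meis2, a homeobox transcription factor, was 8.29 to 9.60 in hyperplasia (median 9.05), against 10.24 and 10.57 in young wild type, and fell by 1.34 ± 0.36 (adjusted p = 0.0333). In pheochromocytoma Meis2 was 9.79, 9.33, 8.78 and 8.32, against 10.70 and 11.03 in older wild type, and fell by 1.81 ± 0.39 (adjusted p = 0.00715), while Tgm2 (−0.59 ± 0.22, adjusted p = 0.0816) and Nrip1 (−0.41 ± 0.18, adjusted p = 0.136) did not pass there.

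These calls rest on few wild-type pools. None of the 3 passed in hyperplasia without young pool 1 or without young pool 2 (adjusted p between 0.0964 and 0.292), and Meis2 did not without hyperplasia replicate 4, 5 or 6 (adjusted p = 0.051 to 0.0513). Nor did any pass with the cortex covariate, under which Meis2 was −0.39 (adjusted p = 0.556), Nrip1 −0.29 (adjusted p = 0.475) and Tgm2 −0.66 (adjusted p = 0.255). Meis2 in pheochromocytoma was −1.65 (adjusted p = 0.123) without older pool 2 and −0.45 (adjusted p = 0.588) with the cortex covariate.

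**Figure D3:**
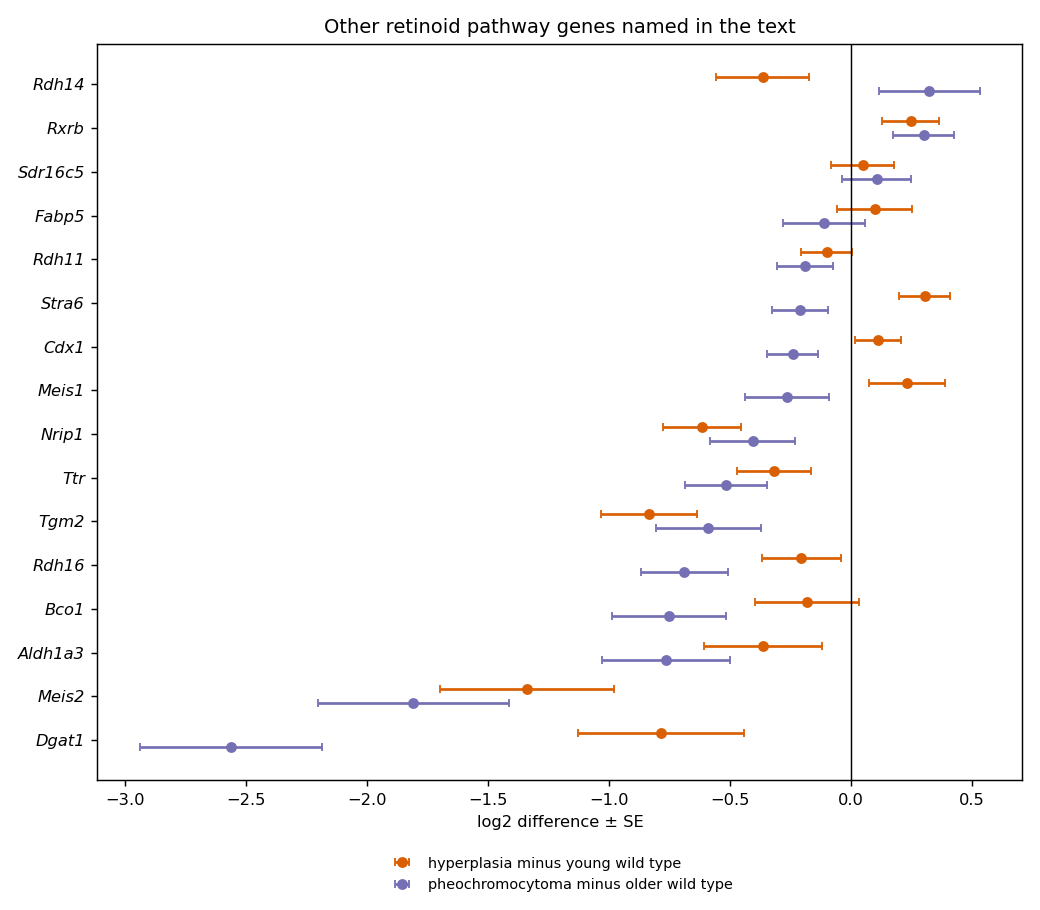
Log2 difference ± SE from the limma fit for the retinoid pathway genes named in the text, for hyperplasia minus young wild type and for pheochromocytoma minus older wild type. Dgat1 in pheochromocytoma lies at −2.56 and Meis2 lies at −1.34 in hyperplasia and −1.81 in pheochromocytoma.

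Whether the lesions differ from wild type by different amounts was asked with the difference of the 2 effects, pheochromocytoma minus hyperplasia. Both effects were known when the 6 genes were chosen, which limits what their p values mean here. None of the 6 genes passed in limma, and none had an unadjusted p under 0.05; over all probe sets 0.0258% passed. The difference of effects was −1.58 ± 0.92 for Lrat (adjusted p = 0.544, interval −3.53 to 0.37), −0.24 ± 1.29 for Rbp4 (adjusted p = 0.962, interval −2.97 to 2.49) and 0.94 ± 0.99 for Aldh1a1 (adjusted p = 0.76). It was −0.37 ± 0.32 for Rarb (adjusted p = 0.703), 0.45 ± 0.61 for Aldh1a2 and −0.12 ± 0.27 for Crabp2. The intervals at 95% are wide enough to hold a 4-fold difference either way for Rbp4. Of the 41 other genes 0 passed and 4 had an unadjusted p under 0.05. The share of all genes under that unadjusted threshold was not counted, so nothing is read from counts at it.

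Between the lesions themselves, pheochromocytoma had more Aldh1a1 and Rarb RNA than hyperplasia. The 6 genes were chosen on differences that use these same lesion arrays, which limits what their p values mean here. Aldh1a1 averaged 8.41 ± 0.96 in pheochromocytoma and 6.51 ± 1.10 in hyperplasia (SD, n = 4 and 8), higher by 1.90 ± 0.52 (limma, adjusted p = 0.00753). Rarb averaged 8.94 ± 0.48 in pheochromocytoma and 8.32 ± 0.23 in hyperplasia, higher by 0.63 ± 0.17 (adjusted p = 0.00691). Aldh1a1 in hyperplasia parts by Xist level, and the means were 8.19 in pheochromocytoma and 7.41 in hyperplasia with high Xist (n = 3 and 4), and 9.06 in pheochromocytoma and 5.60 in hyperplasia with low Xist (n = 1 and 4). Both genes overlapped between the groups, since 1 tumour was at 7.04 for Aldh1a1 and 1 at 8.30 for Rarb. So 2 of the 6 genes passed, beside 40.7% of all probe sets. Aldh1a1 no longer passed when the 4 hyperplasia arrays with Xist opposite to the labelled sex were left out (1.66, adjusted p = 0.0607) or with a fibroblast marker covariate (2.27, adjusted p = 0.0871).

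Lrat, Rbp4, Aldh1a2 and Crabp2 did not pass between the lesions. Lrat differed by −0.20 ± 0.48 (adjusted p = 0.771, interval −1.22 to 0.82) and Rbp4 by 0.31 ± 0.67 (adjusted p = 0.742, interval −1.11 to 1.74). Aldh1a2 differed by 0.46 ± 0.32 (adjusted p = 0.261) and Crabp2 by 0.22 ± 0.14 (adjusted p = 0.239).

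Of the 41 other pathway genes, 3 rose and 7 fell in pheochromocytoma relative to hyperplasia, or 24.4% beside 35.8% of all genes. Rxrb, the partner receptor of the RARs, was 7.07 to 7.16 in pheochromocytoma against 6.30 to 6.77 in hyperplasia, and rose by 0.55 ± 0.09 (adjusted p = 0.00015). Ttr was 6.59 to 7.14 in pheochromocytoma against 5.92 to 6.40 in hyperplasia, and rose by 0.69 ± 0.12 (adjusted p = 0.000215). The arrays of the 2 lesions did not overlap for either gene, as for 26.4% of all probe sets. The other, the retinol dehydrogenase Sdr16c5, rose by 0.36 (adjusted p = 0.00878) and was below the first quartile on every array of both lesions.

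Fabp5, a fatty acid carrier that also binds retinoic acid, was 8.28 to 8.91 in pheochromocytoma against 9.11 to 9.51 in hyperplasia, and fell by 0.68 ± 0.12 (adjusted p = 0.000264). The retinal reductases Rdh11 and Rdh14 fell by 0.50 ± 0.08 (adjusted p = 0.000126) and 0.67 ± 0.15 (adjusted p = 0.0018). Aldh1a3 fell by 0.69 ± 0.19 (adjusted p = 0.00756), opposite in direction to Aldh1a1. Tgm2 fell by 0.56 ± 0.15 (adjusted p = 0.00815), Cdx1 by 0.27 (adjusted p = 0.00801) and Meis1 by 0.39 (adjusted p = 0.0182), the last 2 being homeobox factors. Meis1 did not pass without tumour replicate 4 (−0.32, adjusted p = 0.0752). Fibroblast, pericyte and stellate-like markers moved with these genes (mean of 10 markers, 8.32 to 8.97 in pheochromocytoma against 8.86 to 9.16 in hyperplasia), and 3 of the 10 genes passed with that mean as a covariate. With that covariate Aldh1a3 was −0.91 ± 0.32, Meis1 −0.55 ± 0.20, Cdx1 −0.32 ± 0.13 and Rdh14 −0.69 ± 0.26, none smaller in size than without it. Rdh11 (−0.36 ± 0.13), Tgm2 (−0.38 ± 0.26) and Sdr16c5 (0.27 ± 0.17) were smaller than without it. The part of these markers in the differences was not tested.

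Between the wild-type pools, older medulla had more Rarb RNA than young. The 6 genes were chosen on differences that use these same pools, which limits what their p values mean here. The pools also differed in cortex marker mean (12.59 and 12.92 older, 12.19 and 12.26 young) and, as given below, in fibroblast markers. Both young pools had Xist opposite to the label. Age cannot be told apart from such differences, and a difference called with age is one between these pools. Rarb was 8.38 and 8.57 in the older pools and 7.47 and 7.49 in the young pools, higher by 1.00 ± 0.27 (limma, adjusted p = 0.0156), a 2-fold difference. It was the 1 of the 6 genes that passed, beside 23.7% of all probe sets, and it did not pass without older pool 2 (0.90, adjusted p = 0.0913), without young pool 1 (0.99, adjusted p = 0.0701) or without young pool 2 (1.00, adjusted p = 0.0662). Lrat was 10.77 and 11.92 in the older pools and 9.54 and 10.39 in the young pools, a difference of 1.38 ± 0.79 (adjusted p = 0.22). Aldh1a1 differed by 0.97 ± 0.84 (adjusted p = 0.437), Rbp4 by 0.55 ± 1.10 (adjusted p = 0.755), Crabp2 by 0.34 ± 0.23 (adjusted p = 0.308) and Aldh1a2 by 0.01 ± 0.52 (adjusted p = 0.989). Without young pool 1 Crabp2 passed (0.78, adjusted p = 0.0278).

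Among the 41 other genes 4 rose and 3 fell with age, or 17.1% beside 21.5% of all genes. Ttr was 7.24 and 7.63 in the older pools and 6.53 and 6.56 in the young pools, and rose by 0.89 ± 0.19 (adjusted p = 0.00364). Rdh14 was 8.08 and 8.49 in the older pools and 9.56 and 9.73 in the young pools, and fell by 1.36 ± 0.24 (adjusted p = 0.00088). These 2 passed with each array left out in turn. Dgat1 rose by 1.46 (adjusted p = 0.023), Rxrb by 0.49 (adjusted p = 0.0239) and Stra6 by 0.48 (adjusted p = 0.0167), and Rdh11 fell by 0.41 (adjusted p = 0.0338) and Tgm2 by 0.80 (adjusted p = 0.0292), and each of these 5 failed without at least 1 wild-type pool. Without older pool 2 Dgat1 was 0.63 (adjusted p = 0.325) and Rdh11 −0.34 (adjusted p = 0.186), without older pool 1 Stra6 was 0.38 (adjusted p = 0.118), without young pool 2 Rxrb was 0.40 (adjusted p = 0.154), and without young pool 1 Tgm2 was −0.76 (adjusted p = 0.124). The call of Stra6 is that of its brightest probe set, and the mean of its 5 probe sets differed by 0.09 (adjusted p = 0.55). Fibroblast, pericyte and stellate-like markers had a mean of 8.22 and 8.26 in the older pools and 9.00 and 9.03 in the young pools. None of the 7 genes passed with that mean as a covariate, while Rarb did (1.69, limma, adjusted p = 0.0297). The mean parts the older from the young pools as age does, and with it standard errors grew (Rdh14 from 0.24 to 0.41). The lost calls are therefore not read as dependence on these markers, whose part was not tested. The differences themselves were as large or larger for Dgat1 (1.85 ± 0.73), Rdh14 (−1.39 ± 0.41) and Stra6 (0.53 ± 0.23), and smaller for Ttr (0.80 ± 0.33), Rxrb (0.42 ± 0.25), Rdh11 (−0.18 ± 0.22) and Tgm2 (−0.52 ± 0.42).

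**Figure D4:**
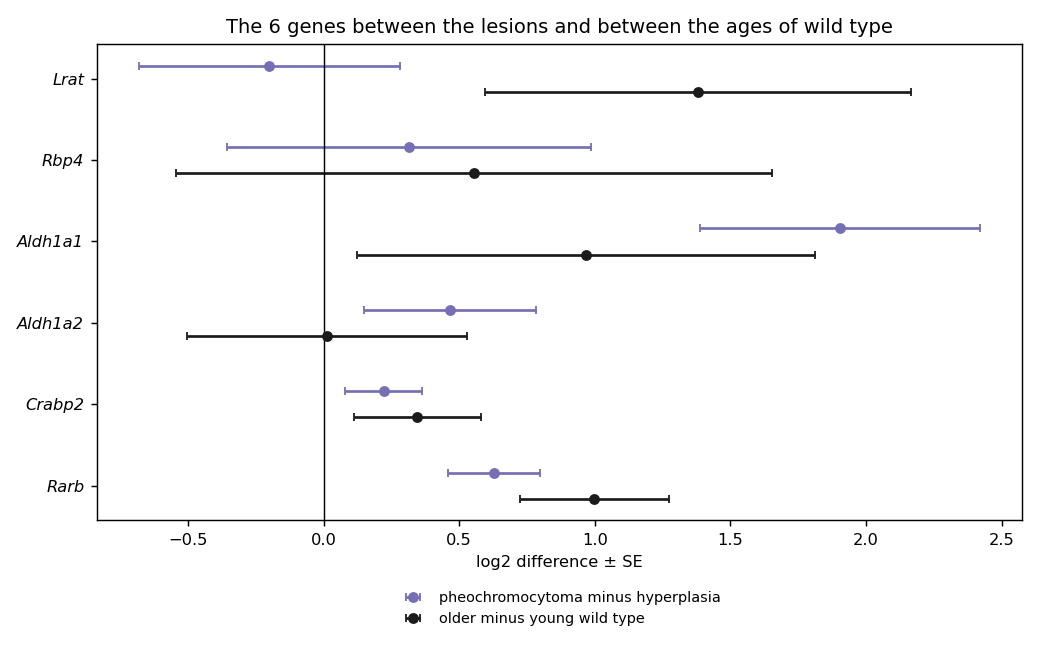
Log2 difference ± SE from the limma fit for the 6 genes, for pheochromocytoma minus hyperplasia and for older minus young wild type. Aldh1a1 (1.90) and Rarb (0.63) passed between the lesions, and Rarb (1.00) passed with age.

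Cyp26b1, an enzyme that breaks retinoic acid down, has probe sets that disagree; it was looked at after its values were seen. The brighter one differed by 0.09 ± 0.11 between pheochromocytoma and hyperplasia, and the dimmer one by 1.83 ± 0.18 (adjusted p = 1.05e-06), with means of 5.79 in pheochromocytoma and 3.95 in hyperplasia. With age the brighter one differed by 0.00 ± 0.19 and the dimmer one by 1.40 ± 0.30 (adjusted p = 0.00335), so no direction is given for the gene.

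Ranked by group mean, Lrat stood highest in older wild type, then young wild type, hyperplasia and pheochromocytoma, and the arrays overlapped only between the last 2 groups. Rbp4 stood highest in pheochromocytoma, then hyperplasia, older and young wild type, and every pair of neighbours overlapped. Aldh1a1 and Rarb both ran pheochromocytoma, older wild type, hyperplasia, young wild type, with no overlap between the first pair for Aldh1a1 and between the last pair for Rarb. All neighbours overlapped for Aldh1a2 and Crabp2.

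The genes with the profile nearest to Lrat over the 16 arrays, by root mean square distance between centred log2 values, were Dsp (0.639), Rbm47 (0.721), Gria3 (0.817), Vil1 (0.822) and Creb3l1 (0.839). Genes picked in this way share the group pattern by choice, so their means are a description. Dsp codes for desmoplakin, a desmosome protein, and its group means were 7.96 in hyperplasia against 9.53 in young wild type, and 8.12 in pheochromocytoma against 10.85 in older wild type. Vil1 codes for villin, an actin-bundling protein of microvilli, and its means were 5.28 in hyperplasia against 6.27 in young wild type, and 5.22 in pheochromocytoma against 8.33 in older wild type. Nearest to Rbp4 were Fcrl2 (1.02), Racgap1 (1.10), Olr59 (1.17), Tbx4 (1.18) and Dgkh (1.20). Dgkh, a diacylglycerol kinase, had means of 11.61 in hyperplasia against 8.04 in young wild type, and 11.70 in pheochromocytoma against 8.33 in older wild type. Racgap1, which acts in cell division, had means of 8.34 in hyperplasia against 6.21 in young wild type, and 8.34 in pheochromocytoma against 5.71 in older wild type. The distances from Rbp4 are larger than those from Lrat, though both genes vary alike over the arrays (1.69 for Rbp4 and 1.70 for Lrat).

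**Figure D5:**
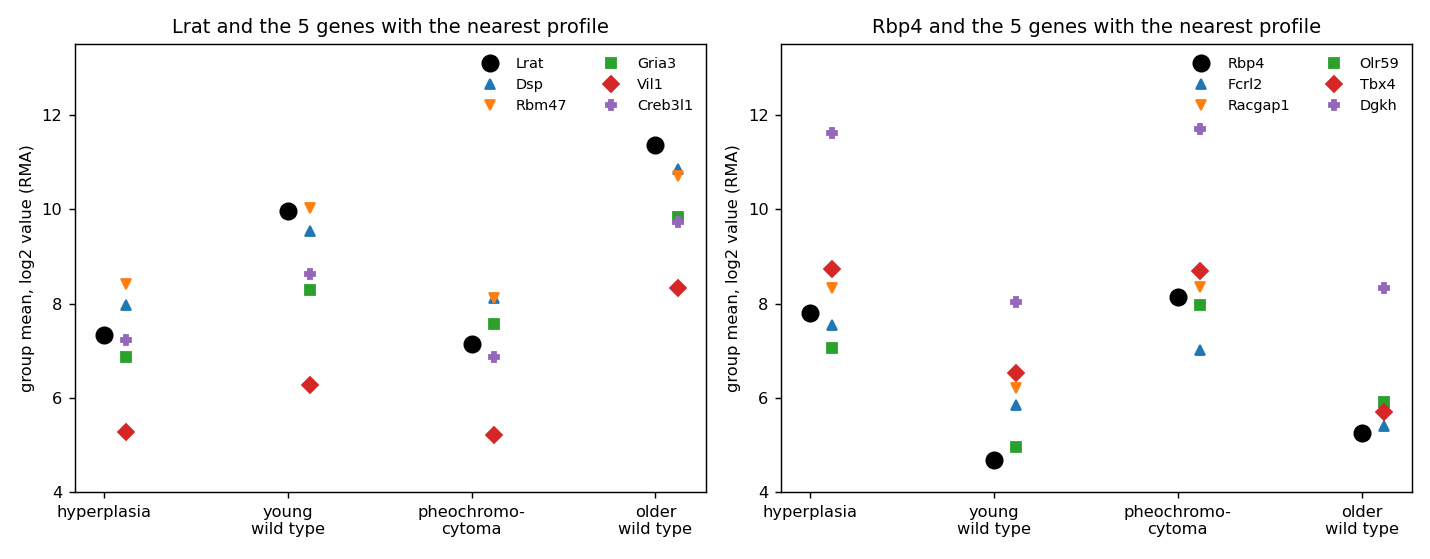
Group mean log2 value of Lrat (left) and Rbp4 (right), in black, with the 5 genes of nearest profile over the 16 arrays, in the order hyperplasia, young wild type, pheochromocytoma, older wild type. The genes near Lrat have their highest mean in older wild type, and those near Rbp4 have lower means in both wild-type groups than in either lesion. They were picked for likeness on these same arrays, so the shared pattern follows from the choice.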

How the data were processed

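Total RNA of 16 rat adrenal samples (Trizol and RNeasy, per the labels' protocols) was hybridised to Affymetrix arrays. The deposited values are log2 values per probe set, made by the authors with RMA, per the submitters' processing notes. Its version, the arrays normalized together and a genome build are not given in the sources used here. The number of arrays limits the precision.

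The 57 control probe sets were left out, which left 31042. A single symbol in the platform annotation belonged to 20826 of them, several to 436 and none to 9780. By Entrez identifier 20758 matched a RefSeq gene table and 0 symbols changed. A gene of the pathway was represented by its brightest probe set (14217 genes).

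Linear models came from limma 3.58.1 (R 4.3.3; eBayes, 4 groups, all 16 arrays, 12 residual degrees of freedom, two-sided), adjusted by Benjamini-Hochberg over the 31042 probe sets, with 0.05 as the threshold. The script was tested on simulated data. The members, the lists (written from general knowledge) and the tests were chosen with earlier results of these data known. Pathway genes were named where they passed in hyperplasia or pheochromocytoma against wild type, between the lesions or with age. Alternatives were labelled sex, Xist level, cortex or fibroblast marker mean as covariates, a replicate block, only the groups compared, a trend with robust prior, the dimmest 30% left out, quantile or median normalization, array weights, the mean of probe sets, the discordant hyperplasia arrays left out, and each array left out in turn. Not measured under a single symbol were 12 of the 53 listed pathway genes.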

Additional observations from a re-analysis of the deposited data

Results flagged for a closer look

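Aldh1a2 in pheochromocytoma replicate 3 was at 8.15, far from the other 3 tumours at 5.73 to 6.05; the gap was 0.866 of the group's range. Of 44 groups of values looked at in this way 1 was so far apart, and chance gives about 1 in 20.

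For 3 pathway genes every pheochromocytoma lay on one side of the mean of the older pools and every hyperplasia array on the opposite side of the mean of the young pools. That is 3 of 22 genes, the 6 and the pathway genes that passed in some comparison, beside 2.47% of all probe sets. The 22 were picked for their differences on these same arrays and the probe sets were not, so nothing is read from the count. Meis1, a homeobox factor, differed by −0.26 in pheochromocytoma and 0.23 in hyperplasia, a difference of effects of −0.50 (limma, adjusted p = 0.448); without older pool 2 it differed by 0.10 in pheochromocytoma, so its opposite direction rests on that pool. Rdh14, a retinal reductase, differed by 0.32 in pheochromocytoma and −0.36 in hyperplasia, a difference of effects of 0.69 (adjusted p = 0.387). Stra6 differed by −0.21 in pheochromocytoma and 0.30 in hyperplasia, a difference of effects of −0.52 (adjusted p = 0.247). These are values of the brightest of 5 Stra6 probe sets, and the mean of the 5 differed by −0.15 in pheochromocytoma and −0.12 in hyperplasia, in the same direction, with a difference of effects of −0.03 (adjusted p = 0.939). None of the 3 passed the test of the difference.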

How the results depend on the processing

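Among the 6 genes and the pathway genes, each by 1 probe set, no difference that had passed the test changed sign under an alternative (the dimmer Cyp26b1 probe set was not run). Lrat and Rbp4 kept their sign against wild type in both lesions and Rarb in hyperplasia, in all 29 alternatives, of which those that leave out arrays of other groups cannot move a difference. Rarb in pheochromocytoma was 0.0045 ± 0.31 with the cortex covariate, which gives no direction. Aldh1a1 turned in both with the cortex covariate. The number of pathway genes past the threshold moved more. In hyperplasia the 3 became 0 with the cortex covariate, 0 with the replicate block and 0 without the hyperplasia arrays of discordant Xist, and 0 to 3 with an array left out (0 without either young pool). In pheochromocytoma the 4 became 0 with the cortex covariate, 1 with the fibroblast covariate, 2 with only the groups compared, and 1 to 7 with an array left out (7 without older pool 1, 1 without older pool 2). For the difference of effects the 0 became 2 (Dgat1 and Bco1) without older pool 1, with a range of 0 to 2. Between the lesions the 10 became 3 with the fibroblast covariate, and 9 to 13 with an array left out. With age the 7 became 0 with the fibroblast covariate, 4 with the replicate block, 3 with only the groups compared, and 2 to 7 with an array left out (4 without older pool 2, 3 without young pool 1, 2 without young pool 2). The other counts were within 1.5 times the reported ones. The fibroblast marker mean parts the older from the young pools, so the 0 with age is not read as dependence on these markers. A lone pool takes its spread from the other groups, by assumption. The difference of effects could not be run on only the groups compared, since it uses all 4.

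The groups share replicate numbers. Of 14 pairs of arrays with the same number 2 had a correlation of deviations over 0.1 (range −0.179 to 0.212). These 2 are the older and young wild-type pools, both at 0.212, which with 2 pools a group is 1 value seen in both pairs. Xist was high in pool 1 of either age (12.30 older, 12.14 young) and low in pool 2 (3.58 older, 3.21 young). Among the wild-type pools Xist level thus goes with the replicate number. With that number as a block Rarb no longer passed between the lesions (0.61, adjusted p = 0.0739) or with age (1.00, adjusted p = 0.0593), and Lrat passed with age (1.38, adjusted p = 0.0326). Aldh1a1 passed with age when only the groups compared were fitted (0.97, adjusted p = 0.023). All 6 members and 29 of the 41 pathway genes lie above the dimmest 30% of probe sets (mean of 5.17), and below that level array values carry little signal over background.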

Other observations

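Single Schwann and sustentacular markers moved both ways in pheochromocytoma against older wild type, although their mean overlapped. S100b, a calcium-binding protein, fell by 1.44 ± 0.28 (limma, adjusted p = 0.00396), while Sox10, a glial transcription factor, rose by 0.68 ± 0.22 (adjusted p = 0.0491). The brightest Mbp probe set, for a myelin protein, was also higher (0.88 ± 0.23, adjusted p = 0.0181), but the other 2 differed by −0.34 and −0.01, so no direction is given. These 3 genes were named after their values were seen. Macrophage and leukocyte markers (7) were 8.36 to 8.83 in pheochromocytoma against 8.44 and 8.77 in older wild type, and 8.90 to 9.39 in hyperplasia against 8.91 and 8.98 in young wild type. Schwann and sustentacular markers (4) were 7.58 to 7.82 in pheochromocytoma against 7.59 and 7.66 in older wild type, and 7.55 to 8.26 in hyperplasia against 7.88 and 7.92 in young wild type. Mesothelial markers (4) were dim, at 5.27 to 5.44 in pheochromocytoma against 5.39 and 5.57 in older wild type, and 4.72 to 4.89 in hyperplasia against 4.94 and 4.96 in young wild type.

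The 2 hyperplasia arrays with low Rbp4, replicates 5 and 6, both had high Xist and the label male, while replicates 3 and 4, with high Xist and the label female, had Rbp4 at 8.90 and 8.57.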
